A study of Mus musculus with 6 samples.

Results

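The mitotic kinases, cyclins, spindle and kinetochore genes described here are 46 genes that carry cells through the last phase of the cell cycle. They were taken by name from a written list, and the array held probes for all 46 of them among its 29708 genes. It lists 41 members under their own name, and the other 5 were matched by accession because the array uses older names, Stk6 for Aurka, Smc2l1 for Smc2, Smc4l1 for Smc4, 2810406C15Rik for Ncapd2 and Brrn1 for Ncaph. The members have 76 probes. For 24 members there is 1 probe, and for the other 22 the probe with the highest mean intensity gives the value and the remaining probes serve to check it.

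Expression was measured in primary fibroblasts grown from mouse embryos of embryonic day 15, wild type or mutant for Wrn, the gene of the RecQ helicase that is defective in Werner syndrome. The mutant cells (Wrn Δhel/Δhel) lack part of the helicase domain of this protein, and the mice have a mixed genetic background that is in part Black Swiss. The deletion was introduced through embryonic stem cells and is present in every cell. Cells of each genotype were left untreated, or were exposed to 0.5 mM H2O2 for 1 h and harvested 24 h later in fresh medium. Labelled cRNA was hybridised to 60-mer whole mouse genome arrays with 2 colours, 6 arrays in all and 2 for each of 3 comparisons. Arrays 1 and 2 of each genotype set treated (Cy5) against untreated cells (Cy3) of that genotype and are called the treatment arrays. Arrays 3 and 4 set untreated cells of the 2 genotypes against each other and are called the genotype arrays. The methods describe the 2 arrays of a comparison as biological duplicates. No array had its dyes exchanged, so a dye preference of a probe enters each ratio.

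Entry into mitosis requires the kinase bound by cyclins A and B, which the Cdc25 phosphatases activate. Polo, Aurora, Nek2 and Ttk kinases then drive centrosome separation, spindle assembly and the spindle checkpoint, which holds back the anaphase-promoting complex until each kinetochore is attached. Separase cleaves cohesin at anaphase, condensins and topoisomerase II compact and untangle the chromosomes, and the midzone and contractile ring divide the cell. Most of these genes are transcribed late in the cell cycle, in part through Foxm1, B-Myb, NF-Y boxes (CCAAT) and the cell cycle homology region (CHR) of their promoters, and in cultured fibroblasts their transcripts follow the share of dividing cells.

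The promoters are shown because such shared elements are known for this gene class. RefSeq promoter windows (GRCm38.p6, 250 bases before to 50 bases after the annotated start) were at hand for 38 of the 46 members, 3 of them with 2 windows, giving 41 windows, and the table holds none for Aurkb, Ccna2, Cdc25c, Foxm1, Incenp, Kif20a, Smc4 and Tpx2. The bases from -150 to -1 are printed for 6 genes: the 4 members with the lowest log2 ratios on the genotype arrays among those with a value on both arrays and a window (Anln, Top2a, Hmmr and Ttk), the member with a window whose ratio was highest there (Cdc20), and the member with the highest log2 ratio of treated over untreated mutant cells (Pttg1). In order, they lie at chr9:22389207-22389356 (minus strand), chr11:99024190-99024339 (minus strand), chr11:40733438-40733587 (minus strand), chr9:83834539-83834688 (plus strand), chr4:118437344-118437493 (minus strand) and chr11:43425982-43426131 (minus strand). Capitals mark matches to CCAAT, to the CHR letters TTTGAA or TTCGAA and to the E2F letters TTTGGCGC or TTTCGCGC, each searched on both strands.
Anln: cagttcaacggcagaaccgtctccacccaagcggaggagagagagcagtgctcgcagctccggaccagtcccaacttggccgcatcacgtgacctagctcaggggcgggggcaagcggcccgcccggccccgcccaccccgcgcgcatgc
Top2a: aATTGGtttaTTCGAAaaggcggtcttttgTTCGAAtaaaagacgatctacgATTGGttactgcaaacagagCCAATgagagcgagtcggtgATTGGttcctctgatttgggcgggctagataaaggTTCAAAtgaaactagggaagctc
Hmmr: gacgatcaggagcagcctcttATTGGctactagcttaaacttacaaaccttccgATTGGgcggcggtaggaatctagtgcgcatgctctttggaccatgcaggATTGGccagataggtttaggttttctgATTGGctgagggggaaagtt
Ttk: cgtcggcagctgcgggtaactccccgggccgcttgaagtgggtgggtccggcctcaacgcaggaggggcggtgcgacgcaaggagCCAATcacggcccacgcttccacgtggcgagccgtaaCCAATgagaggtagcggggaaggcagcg
Cdc20: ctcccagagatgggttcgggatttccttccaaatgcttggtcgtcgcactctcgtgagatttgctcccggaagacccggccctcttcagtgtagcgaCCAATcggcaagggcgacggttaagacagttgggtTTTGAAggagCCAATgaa
Pttg1: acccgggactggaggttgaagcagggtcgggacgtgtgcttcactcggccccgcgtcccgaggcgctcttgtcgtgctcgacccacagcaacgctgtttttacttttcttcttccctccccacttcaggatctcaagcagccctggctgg
Top2a held 4 CCAAT and 3 CHR matches in this stretch, Hmmr 4 CCAAT matches, Ttk 2 CCAAT matches, and Cdc20 2 CCAAT matches and 1 CHR match, whereas Anln and Pttg1 held none in it. Over the whole windows, Anln had 2 CHR matches and Pttg1 had no match to any of the letters. A match is a run of letters and not a site shown to be bound, and in the windows of the members 0 pairs of matches to different motifs shared a base.

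Across the members, CCAAT was found in 32 of 41 windows (78%), against 37.4% of the 32851 windows of all genes in the table. CHR letters were found in 30 of the 41 (73.2%), against 19.2% of all windows. Both were present in 28 windows (68.3%), against 7.52% of all. The E2F letters were found only in the window of Ncapd2 (2.44% of the windows, against 0.813% of all). The matches to CCAAT began at a median of -66 from the start site and those to CHR at a median of -17.5.

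**Figure D1:**
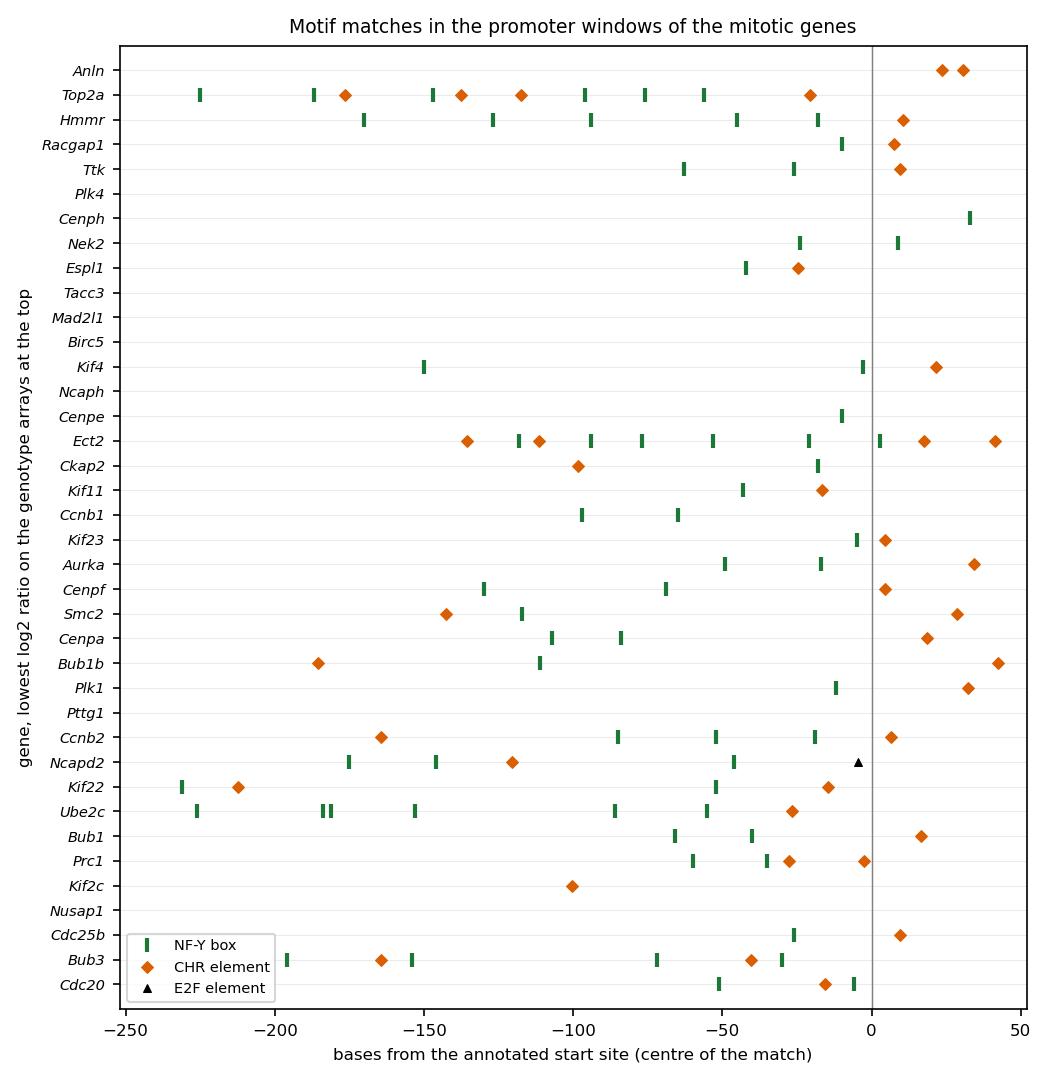
Each line is 1 member with a promoter window, ordered by its log2 ratio on the genotype arrays with the lowest at the top, and the horizontal axis gives the distance in bases from the annotated start site. Green bars (CCAAT) lie mostly upstream of the orange diamonds (CHR), with medians of -66 and -17.5, and the black triangle is the E2F match of Ncapd2.

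The arrays held 41174 non-control probes. Spots marked as outliers by the image analysis were left out. They made up 0.4% to 8.81% of the spots on 5 arrays and 22.6% on wild type treatment array 2, where the value of 17 members was lost. On the other arrays this befell 0 to 9 members. The log2 ratios of the members correlated between the 2 arrays of a comparison with r = 0.882 for treated wild type cells, 0.775 for treated mutant cells and 0.694 for the genotype arrays, with outlier spots kept (46 genes each, which share array and dye). The members were bright, with a median mean log2 intensity of 8.55 (6.003 to 10.6), against 5.74 over all genes. The culture label was checked on marker genes. All 10 fibroblast markers stood well above background in both dyes of all 6 arrays (median log2 intensity 11.6), while the medians of the other lists were 5.03 for macrophages, 4.12 for endothelium, 5.67 for epithelium, 7.57 for skeletal muscle and 6.23 for neural cells. Of the 5 skeletal muscle markers, 4 stood well above background in every channel, with Acta1 at 10.76 and Myod1 at 9.94. So did 2 of 8 macrophage and 2 of 4 neural markers, and 0 of the endothelial or epithelial ones. No marker of any list was at background in every channel. The Wrn signal does not check the labels, since the position of its 4 probes relative to the deletion is not given in the sources used here.

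The genotype arrays ask how the mitotic genes stand in mutant cells before any treatment. Ratios are given as Cy5 over Cy3, and this is likely mutant over wild type. The labels place the wild type in Cy5, but the heading of the study's list of genotype differences gives mutant over wild type with the sign of Cy5 over Cy3. Also, over the 3714 genes called on the genotype arrays that have values on all treatment arrays, these ratios correlated with the Cy3 levels of the treatment arrays, untreated mutant minus untreated wild type (r = 0.861, 91.1% with the same sign, a description across genes). If the dyes of the labels hold, each sign on the genotype arrays turns.

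With this direction, the mitotic genes were lower in untreated mutant cells. Of the 46 members, 19 (41.3%) had a log2 ratio below 0 at an adjusted p under 0.05 (limma, Benjamini-Hochberg over all probes), against 8.47% of all genes called lower, and 0 members were called higher, against 10.6% of all genes. Of the 19, 17 had values on both arrays, and Cenph and Racgap1 on array 3 alone. At an unadjusted p under 0.05, 27 members (58.7%) were lower, against 16% of all genes, and 1 (Tpx2) was higher, against 19.3%. At the study's thresholds for this comparison, which are an adjusted p under 0.005 and a mean log2 intensity over 6 on the genotype arrays, Anln, Cdc25c, Plk4 and Ttk were called lower (4 members, 8.7%, against 0.516% of all genes), and no member was higher, against 1.39%. Hmmr passed the p but had an intensity of 5.53 on these arrays. The median log2 ratio of the members was -0.59, with -0.64 on array 3 and -0.59 on array 4, while that of all genes was 0.03. Ratios were below 0 for 40 members and above 0 for 6. Markers of cell types moved on the same arrays. Of the 10 fibroblast markers 9 were above 0 (median 0.44), with Col1a1, Col3a1, Pdgfra and Pdgfrb called higher. The 5 epithelial markers did not move together. Krt18 (-1.45) and Krt19 (-1.69) were called lower, Epcam (-0.66) was not called, and Krt8 (0.02) and Cdh1 (0.25) were above 0. Of these, Krt19 and Cdh1 were dim, with log2 intensities of 4.73 and 3.66. The part of the markers in the ratios of the mitotic genes was not tested. In RNA of whole cultures, fewer cells in mitosis and less transcript per cell cannot be told apart.

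These figures depend on the correction for intensity. With each array centred on its median in place of loess, the median of the members was -0.23, with 29 members below 0, and 8 were called lower, against 3.39% of all genes: Anln, Cdc25c, Espl1, Hmmr, Nek2, Plk4, Top2a and Ttk. The members are brighter than most genes, as given above, and the part of brightness in the difference was not tested.

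**Figure D2:**
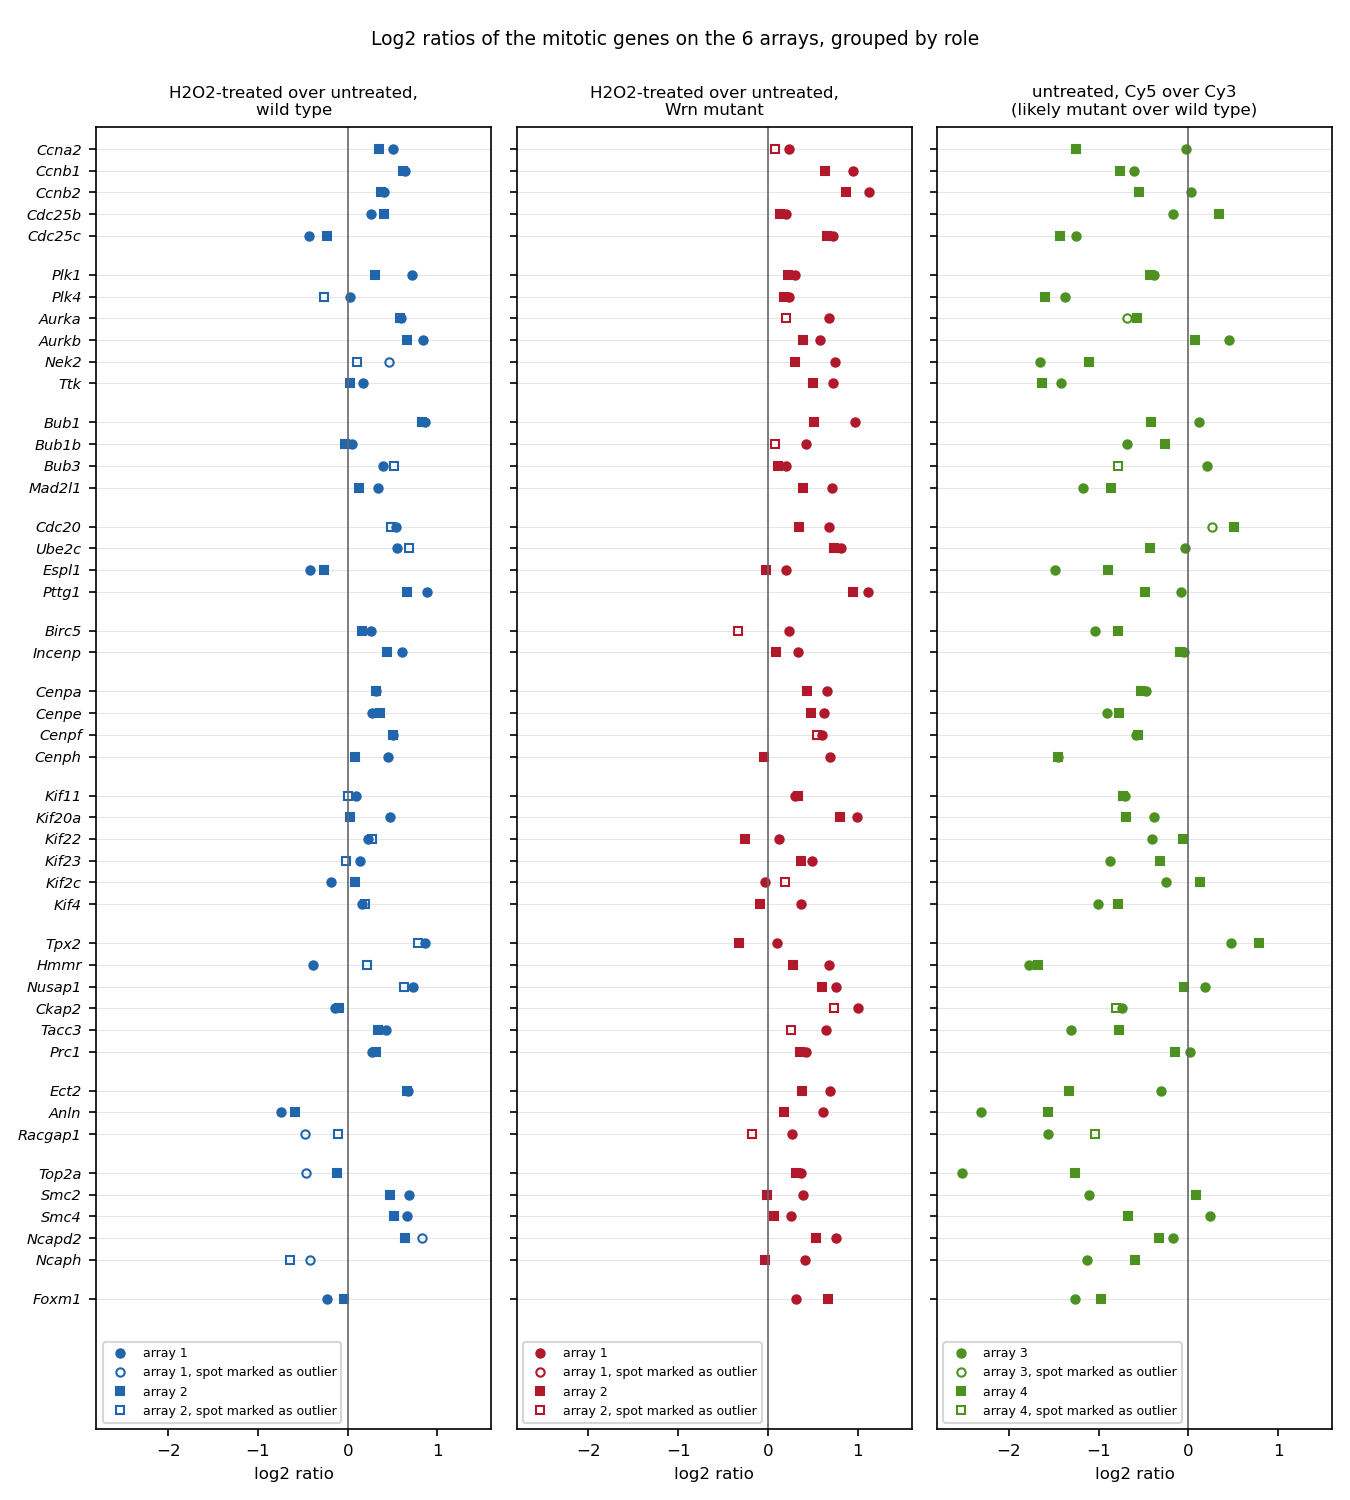
Log2 ratios of the 46 members on each array (circles, the first array of a comparison; squares, the second), grouped by role from cyclins at the top to Foxm1 at the bottom; open symbols are spots marked as outliers, which the tests left out. Ratios of treated over untreated cells lie mostly above 0 in wild type (blue, 35 of 43 fitted ratios) and mutant cells (red, 43 of 46), and those of the genotype arrays (green) mostly below 0 (40 of 46).

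Among the cyclins and activators of the cyclin-dependent kinase, 2 of 5 were called lower. Cdc25c, a phosphatase that activates cyclin B kinase, stood at -1.25 and -1.43 on arrays 3 and 4, a log2 ratio of -1.34 (SE 0.16, 2.53-fold, adjusted p = 0.00338). Its other, dimmer probe gave -0.08 (adjusted p = 0.816), so the probes of this gene disagree. Ccnb1, the main mitotic cyclin, stood at -0.61 and -0.76 (log2 ratio -0.68, SE 0.16, adjusted p = 0.0286), and its other probes at -0.88 and -0.51. Ccna2, the cyclin of S phase and mitotic entry, was near 0 on array 3 (-0.03) and low on array 4 (-1.26), and its adjusted p was 0.181. Ccnb2 had 0.03 and -0.54, and the phosphatase gene Cdc25b had -0.18 and 0.34. The arrays of these last 3 genes thus did not go together.

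Of the 6 kinases, 3 were called lower. Ttk, the kinase that starts spindle checkpoint signalling, had -1.42 and -1.63 (log2 ratio -1.53, SE 0.16, 2.88-fold, adjusted p = 0.00253), the smallest adjusted p of the members. Plk4, the kinase of centriole duplication, had -1.38 and -1.60 (log2 ratio -1.49, SE 0.17, adjusted p = 0.00432). Its second probe, nearly as bright, had -1.79 and -0.52 (log2 ratio -1.16, adjusted p = 0.0331). Nek2, which acts in centrosome separation, had -1.65 and -1.11 (log2 ratio -1.38, SE 0.21, adjusted p = 0.0105). By their brightest probes these 3 kinases were low on both arrays by similar amounts, but the arrays of the second Plk4 probe differed. The remaining kinases were not called. Plk1, the polo kinase of mitotic entry and spindle assembly, had -0.39 and -0.43 (adjusted p = 0.128). Aurka, the Aurora kinase of the spindle poles, had -0.58 on array 4 alone (adjusted p = 0.223). Aurkb, the Aurora kinase of the chromosomal passenger complex, lay above 0 on both arrays (0.46 and 0.07, adjusted p = 0.307).

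In the spindle checkpoint, Mad2l1 alone of 4 genes was called. Its protein binds and restrains Cdc20, and its ratios were -1.18 and -0.87 (log2 ratio -1.02, SE 0.17, 2.03-fold, adjusted p = 0.0102), with -1.10 from its other probe. The checkpoint kinase gene Bub1 had 0.12 and -0.41 (adjusted p = 0.634), Bub1b had -0.68 and -0.26 (adjusted p = 0.121), and Bub3 had 0.21 on array 3 alone. Among the 4 anaphase genes, Espl1, which encodes separase, was called lower with -1.48 and -0.89 (log2 ratio -1.19, SE 0.19, adjusted p = 0.00865). Pttg1, which encodes its inhibitor securin, had -0.08 and -0.48 (log2 ratio -0.28, adjusted p = 0.287). Ube2c, the ubiquitin-conjugating enzyme of the anaphase-promoting complex, had -0.03 and -0.42. Cdc20, the activator of that complex, had 0.51 on array 4 alone (adjusted p = 0.242). Separase was thus called and securin was not, but the difference between the genes was not tested.

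In the chromosomal passenger complex, Birc5 (survivin) had -1.04 and -0.79 (log2 ratio -0.91, SE 0.17, adjusted p = 0.0172), while Incenp, its scaffold, had -0.04 and -0.10 (adjusted p = 0.781). All 4 genes of centromere and kinetochore lay below 0, and 2 were called. Cenpe, the kinetochore motor, had -0.90 and -0.77 (log2 ratio -0.84, SE 0.15, adjusted p = 0.0126), with -0.67 and -1.35 from its other probes. Cenph, of the inner kinetochore, had -1.46 on array 3 alone (adjusted p = 0.0301, with the spread taken from its treatment arrays and from other genes). Its other probe, not well above background in either dye, had 0.90. Neither Cenpa, the histone variant of centromeres (-0.47 and -0.53, adjusted p = 0.0859), nor Cenpf (-0.59 and -0.56, adjusted p = 0.0816) was called, although both arrays placed them alike.

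The 6 kinesins all lay below 0, with 2 of them called. Kif11, the motor that keeps spindle poles apart, had -0.70 and -0.73 (log2 ratio -0.71, SE 0.16, adjusted p = 0.0294), and its dimmer probe, whose Cy5 was not well above background on either array, had -1.90. Kif4, a chromosome-bound kinesin, had -1.01 and -0.78 (log2 ratio -0.89, SE 0.19, adjusted p = 0.0257). Its other probe had -0.73 and -0.24 (log2 ratio -0.48) and did not pass (adjusted p = 0.133). The cytokinesis motors Kif20a and Kif23 had log2 ratios of -0.54 and -0.59 (adjusted p = 0.0818 and 0.0869). Kif22 and Kif2c, of chromosome arms and of kinetochore microtubules, lay nearer to 0 at -0.24 and -0.06.

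Spindle and midzone genes lay on both sides of 0. Hmmr, a microtubule-binding protein of the spindle, had -1.78 and -1.68 (log2 ratio -1.73, SE 0.18, adjusted p = 0.00369). Its Cy5 signal was not well above background on either array, so the size of the ratio is uncertain. In normalized levels per channel, its mean Cy3 was log2 6.59. The lowest Cy5 level of any probe marked well above background was 5.06, and against it the gene was 2.89-fold lower. That level is the minimum over probes. The limit of a typical probe may be higher and the fold smaller, so this is no firm bound, and it is open to dye bias. Tacc3, which strengthens kinetochore fibres, had -1.31 and -0.78 (log2 ratio -1.04, SE 0.19, adjusted p = 0.0175). Tpx2, a spindle assembly factor and activator of Aurora A, stood at the other end, with 0.47 and 0.79 (log2 ratio 0.63, adjusted p = 0.0693). It was called higher in 4 of 14 alternative settings, with adjusted p between 0.0159 and 0.285 over the 14. Ckap2 had -0.73 on array 3 alone and was not called (adjusted p = 0.101). Its dimmer probe had -1.31 and -0.62 (log2 ratio -0.96, adjusted p = 0.0314). The microtubule bundling genes Prc1 and Nusap1 had log2 ratios of -0.06 and 0.07.

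Among the 3 cytokinesis genes the median was the lowest of any group, at -1.56. Anln, which encodes the contractile ring scaffold anillin, had -2.31 and -1.57, a log2 ratio of -1.94 (SE 0.22, 3.83-fold, adjusted p = 0.00321), and its other probe had -1.13 (adjusted p = 0.00866). Racgap1, the GTPase-activating subunit of centralspindlin, had -1.56 on array 3 alone (adjusted p = 0.0322). With values on only 2 of the 6 arrays, 1 a comparison, the spread behind this p is that of other genes alone. The dimmer probe of Racgap1, with Cy5 not well above background on either array, had -2.35 and -0.20 (adjusted p = 0.0829). Ect2, the exchange factor that Racgap1 recruits, had -0.31 and -1.33 (adjusted p = 0.0615), and -1.94 from a probe whose Cy5 was not well above background. Of the 5 genes for chromosome condensation, Top2a, which encodes topoisomerase II alpha, had -2.52 and -1.26 (log2 ratio -1.89, SE 0.30, 3.71-fold, adjusted p = 0.0116). The condensin subunit gene Ncaph had -1.13 and -0.60 (log2 ratio -0.86, SE 0.21, adjusted p = 0.0387). The other condensin genes had -0.51 (Smc2), -0.25 (Ncapd2) and -0.22 (Smc4), none of them called, but a second probe of Smc4 had -1.27 (adjusted p = 0.00558). A dimmer probe of Smc2, with Cy5 not well above background on array 4, had -0.98 (adjusted p = 0.0302). Foxm1, a forkhead factor that drives many of these promoters, had -1.26 and -0.97 (log2 ratio -1.11, SE 0.17, 2.17-fold, adjusted p = 0.00794).

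Where members had several probes, the sign of the genotype ratio was shared by all probes in 20 of 22 genes, with Cdc25b and Cenph as the exceptions. The median spread between the highest and lowest probe of a gene was 0.49, and the widest was 2.36 (Cenph). In 14 alternative settings of the processing, Anln, Cdc25c, Plk4 and Ttk were called lower in all 14. Ccnb1 was called in 7 of 14, Ncaph in 6 of 14 and Cenph in 5 of the 13 that gave it a value.

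The untreated cells on the treatment arrays give a second view of the genotypes within Cy3, although there array and genotype cannot be told apart. With outlier spots kept, the level of untreated mutant cells was below that of wild type cells for 39 of 46 members, with a median difference of -0.48 in log2 level, against 0.06 over all genes. Both mutant arrays lay below both wild type arrays for 26 members (56.5%), against 19.1% of all genes, and above them for 3 (6.52%: Cdc25b, Prc1 and Tpx2), against 26.8%. Hmmr had log2 Cy3 levels of 6.65 and 7.17 in wild type and 4.95 and 4.83 in mutant cells. The mutant level was well above background on 1 of these 2 arrays, so the size of its difference of -2.02 is uncertain. Cdc25c had 8.72 and 8.94 in wild type and 7.34 and 7.57 in mutant cells, a difference of -1.38. Anln had 8.59 and 8.17 against 6.96 and 7.60, and Ttk had 7.06 and 7.12 against 5.76 and 6.34. In none of these 4 genes did the genotypes overlap. Foxm1 did overlap, with 9.06 and 8.37 against 8.11 and 8.40, and so did Birc5. Tpx2 was higher in mutant cells here too (8.16 and 8.40 against 8.72 and 9.13). Without outlier spots, 18 of the 21 members measured on all 4 arrays were below 0, and 20 of the 21 had the sign of the genotype arrays. The direction of the genotype arrays was read in part from such Cy3 levels, so this shared sign is no separate support for it. Cy5 of the genotype arrays was also set against Cy3 of untreated mutant cells, which by the likely direction both hold untreated mutant RNA. The median over 34 members was -0.07, with 20 below and 14 above 0, but single genes had larger offsets. Every member called lower that had a value here lay below 0, from -0.62 (Nek2) to -0.02 (Hmmr). Members not called lay on both sides, from -0.49 (Smc2) to 0.59 (Ect2). The part of these offsets in the genotype ratios was not tested.

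**Figure D3:**
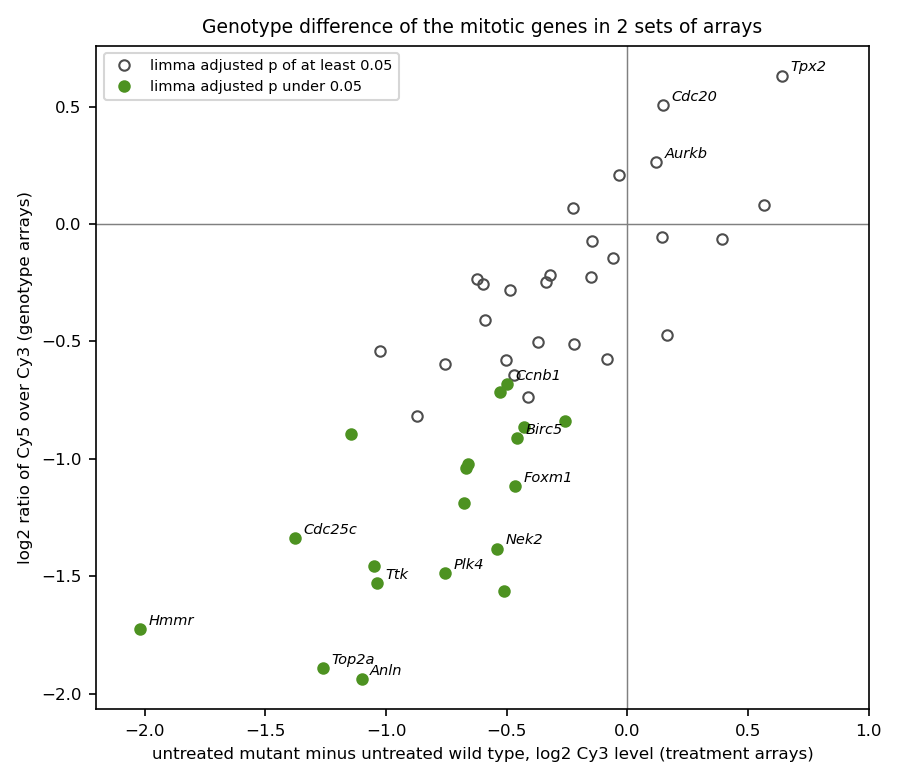
For each member, the horizontal axis gives the log2 Cy3 level of untreated mutant minus untreated wild type cells on the treatment arrays (mean of 2 arrays each, outlier spots kept), and the vertical axis the log2 ratio on the genotype arrays. The 19 members called lower (filled) lie below 0 on both axes, with Hmmr at the far left (-2.02, where 1 of its 2 mutant Cy3 levels was not well above background) and Tpx2 at the upper right.

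The wild type treatment arrays ask how these genes stood 24 h after H2O2. None of the 43 members with a value passed an adjusted p of 0.05 by limma (the smallest was 0.078, for Pttg1), against 0.265% of all genes. At an unadjusted p under 0.05, 11 members (25.6%) had ratios above 0, against 10.7% of all genes, and 1 (Anln) below 0, against 9.38%. The 11 were Aurkb, Bub1, Ccnb1, Ect2, Incenp, Ncapd2, Nusap1, Plk1, Pttg1, Smc4 and Tpx2. The median log2 ratio of treated over untreated cells was 0.32 over the members, with 0.39 on array 1 and 0.32 on array 2, against 0.00 over all genes, and 35 of 43 members were above 0. No value was left for Nek2, Racgap1 or Ncaph, which were marked as outliers on both arrays. With median centring in place of loess, the median of the members was 0.88. With outlier spots kept, it was 0.33 over 46 members, 34 of them above 0.

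In treated mutant cells, 0 of 46 members passed an adjusted p of 0.05 (smallest 0.208, for Pttg1), as did 0% of all genes. At an unadjusted p under 0.05, 20 members (43.5%) had ratios above 0, against 6.01% of all genes, and 0 had ratios below 0, against 6.49%. The median log2 ratio was 0.45 (0.59 on array 1 and 0.35 on array 2), against 0.01 over all genes, and 43 of 46 members were above 0. Tpx2, Kif22 and Kif2c were below 0. With median centring the median was 1.21, and 16 members were called higher, against 2.29% of all genes.

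The adjusted p-values in both treatment comparisons rest on a spread that the genotype arrays share, whose 2 arrays correlated least. When either genotype array was left out of the fit, 12 members were called higher and 1 (Anln) lower in treated wild type cells, against 11.9% and 10.8% of all genes, and 16 members higher in treated mutant cells, against 4.42% of all genes. The genes called higher in both, each by its brightest probe, were Aurkb, Bub1, Ccnb1, Ect2, Ncapd2, Nusap1 and Pttg1. Fitted on their own 2 arrays, 13 members were called higher and 1 lower in wild type cells, against 13.1% and 11.9% of all genes, and 16 higher in mutant cells, against 4.8%. In wild type cells the share of members called higher was thus 27.9% without a genotype array and 30.2% on their own arrays, and in mutant cells it was 34.8% in both. Fibroblast markers moved with the wild type treatment: 6 of the 7 with a value lay below 0, with a median log2 ratio of -1.09, and in treated mutant cells the median was -0.17. The 5 skeletal muscle markers were all below 0 in treated wild type cells (median -0.68, against -0.14 in treated mutant cells, with 3 of 5 below 0). The part of these markers in the treatment ratios was not tested.

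**Figure D4:**
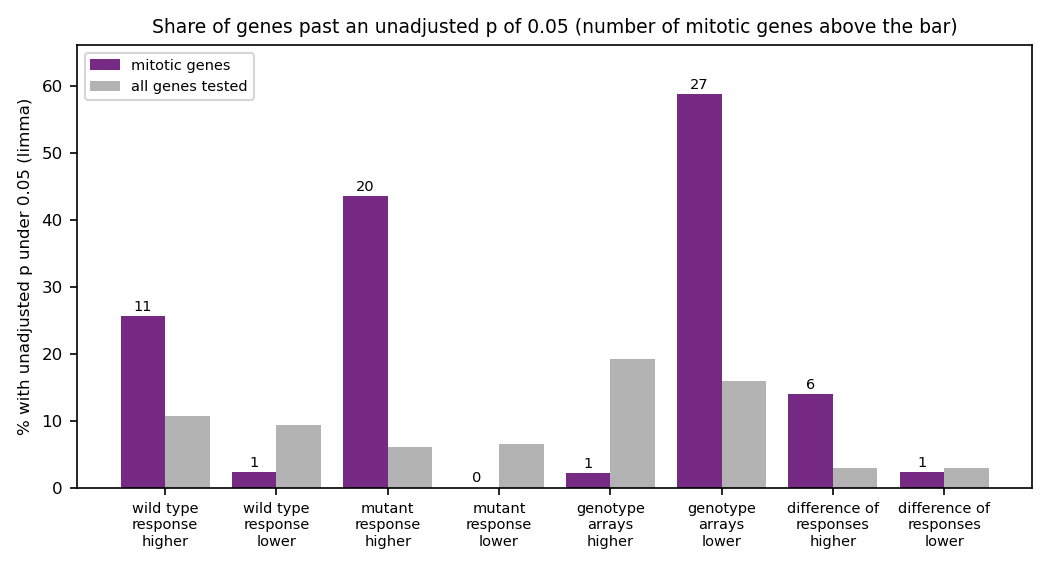
Bars give the percent of genes with an unadjusted p under 0.05 by limma, for the mitotic genes (purple, with their number above the bar) and for all genes tested (grey), in each comparison and direction. The purple bar exceeds the grey one for ratios above 0 in treated wild type (25.6% against 10.7%) and mutant cells (43.5% against 6.01%), for ratios below 0 on the genotype arrays (58.7% against 16%), and for positive differences of the responses (14% against 2.9%).

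Securin and the mitotic cyclins lay above 0 on every treatment array. Pttg1 had 0.88 and 0.66 in wild type (log2 ratio 0.77, SE 0.17) and 1.12 and 0.94 in mutant cells (log2 ratio 1.03, SE 0.17, 2.04-fold), high on all 4 arrays. Ccnb1 had 0.64 and 0.61 in wild type (adjusted p = 0.0971) and 0.95 and 0.63 in mutant cells (adjusted p = 0.231). Ccnb2 had 0.41 and 0.37 in wild type and 1.12 and 0.87 in mutant cells (log2 ratio 1.00, SE 0.19, adjusted p = 0.229). The difference of its responses between the genotypes was not called (limma adjusted p = 0.845). Ccna2 had 0.50 and 0.35 in wild type and 0.23 on mutant array 1 alone. Cdc25b lay above 0 on all 4 arrays, between 0.13 and 0.40. Of the other anaphase genes, Ube2c had 0.55 on wild type array 1 alone and 0.81 and 0.74 in mutant cells. Cdc20 had 0.53 on wild type array 1 alone and 0.68 and 0.35 in mutant cells. Espl1 differed from these, with -0.42 and -0.27 in wild type and 0.20 and -0.02 in mutant cells.

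Kinases lay above 0 in both genotypes wherever they had a value. Aurkb had 0.83 and 0.66 in wild type (log2 ratio 0.75, SE 0.17, adjusted p = 0.0802) and 0.58 and 0.39 in mutant cells. Plk1 had 0.71 and 0.31 in wild type and 0.30 and 0.23 in mutant cells. Aurka had 0.59 and 0.68 on array 1 of wild type and mutant cells, with no value on either array 2. Ttk had 0.17 and 0.03 in wild type and 0.72 and 0.50 in mutant cells (log2 ratio 0.61, SE 0.16). Its difference between the genotypes was not called (limma adjusted p = 0.845). Nek2 had 0.74 and 0.30 in mutant cells. Plk4 was close to 0 in wild type (0.02, array 1 alone) and had 0.23 and 0.18 in mutant cells. Its second probe had 0.71 and 0.52 in wild type and 0.39 and 0.19 in mutant cells.

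In the spindle checkpoint, Bub1 had 0.86 and 0.83 in wild type (log2 ratio 0.84, SE 0.20, adjusted p = 0.0832) and 0.97 and 0.52 in mutant cells (log2 ratio 0.74, adjusted p = 0.28). Mad2l1 had 0.34 and 0.13 in wild type and 0.71 and 0.39 in mutant cells. Bub1b was near 0 in wild type (0.05 and -0.03) and had 0.42 on mutant array 1 alone. Bub3 had 0.39 on wild type array 1 and 0.21 and 0.11 in mutant cells. The passenger genes gave 0.26 and 0.16 for Birc5 and 0.61 and 0.43 for Incenp in wild type cells. In mutant cells Birc5 had 0.23 on array 1 alone and Incenp had 0.34 and 0.09. At the kinetochore, Cenpa had 0.31 on wild type array 1 and 0.66 and 0.43 in mutant cells, and Cenpe had 0.27 and 0.35 in wild type and 0.63 and 0.47 in mutant cells. Cenpf had 0.50 and 0.60 on array 1 of wild type and mutant cells, and Cenph, with 0.45 and 0.08 in wild type and 0.69 and -0.04 in mutant cells, differed between the arrays of each genotype.

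Among the kinesins, Kif20a had 0.48 and 0.03 in wild type and 0.99 and 0.80 in mutant cells (log2 ratio 0.89, SE 0.18, adjusted p = 0.233). Kif11 had 0.09 on wild type array 1 and 0.30 and 0.34 in mutant cells. The ratios of Kif22, Kif23, Kif2c and Kif4 lay between -0.05 and 0.22 in wild type and between -0.07 and 0.43 in mutant cells. Among spindle and midzone genes, Nusap1 had 0.73 on wild type array 1 and 0.76 and 0.60 in mutant cells, Tacc3 had 0.42 and 0.33 in wild type and 0.65 on mutant array 1, and Prc1 had 0.27 and 0.32 in wild type and 0.43 and 0.36 in mutant cells. Tpx2 had 0.87 on wild type array 1 alone and 0.10 and -0.32 in mutant cells. It is among the 15 of 43 members with the larger log2 ratio in wild type cells. Ckap2 had -0.14 and -0.10 in wild type and 1.00 on mutant array 1 alone. Hmmr had -0.39 on wild type array 1 alone and 0.68 and 0.27 in mutant cells, where Cy3 on array 1 and Cy5 on array 2 were not well above background.

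For chromosome condensation, the condensin genes Smc2 (0.68 and 0.47), Smc4 (0.66 and 0.51) and Ncapd2 (0.63 on array 2) were above 0 in wild type cells. In mutant cells Ncapd2 had 0.75 and 0.53, while the ratios of Smc2, Smc4 and Ncaph were between 0.16 and 0.19. Top2a had -0.12 on wild type array 2 and 0.37 and 0.31 in mutant cells. In cytokinesis, Ect2 had 0.67 and 0.66 in wild type and 0.69 and 0.37 in mutant cells. Its dimmer probe had -0.87 on wild type array 1 alone, so the probes of this gene disagree. In mutant cells that probe had a log2 ratio of -0.03, with Cy5 not well above background. Racgap1 had 0.27 on mutant array 1. Anln was the lowest member in wild type cells, with -0.74 and -0.58 (log2 ratio -0.66, SE 0.22, adjusted p = 0.163), and had 0.61 and 0.17 in mutant cells. Foxm1 had -0.23 and -0.04 in wild type and 0.31 and 0.67 in mutant cells.

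After treatment, all probes of a gene shared a sign in 12 of 20 genes in wild type and 14 of 22 in mutant cells. The exceptions in wild type were Bub3, Cdc25b, Cenpe, Cenpf, Ect2, Kif11 (-0.79 from its dimmer probe), Plk4 and Smc2. In mutant cells they were Anln, Cdc25b, Cenpf, Ect2, Kif11, Nusap1, Plk4 and Smc2. The median spread between probes was 0.45 and 0.32, and the widest was 1.78 (Plk4, one of whose probes is at background) in wild type and 0.71 (Nusap1) in mutant cells. For Ccnb1, the brightest and the other probes agreed, with 0.63, 0.76 and 0.71 in wild type and 0.79, 0.89 and 0.68 in mutant cells.

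Whether the genotypes differed in their response was tested as a difference of the log2 ratios, mutant minus wild type. By limma, 0 of 43 members passed an adjusted p of 0.05 (smallest 0.589, for Cdc25c), as did 0% of all genes. At an unadjusted p under 0.05, 6 members (14%: Anln, Cdc25c, Ckap2, Foxm1, Hmmr and Kif20a) had the larger log2 ratio in mutant cells, against 2.9% of all genes, and 1 (Tpx2) in wild type cells, against 2.91%. The median difference was 0.10, against -0.00164 over all genes, with 28 members above and 15 below 0. Cdc25c had -0.43 and -0.24 in wild type and 0.73 and 0.65 in mutant cells, and the difference was 1.02 (95% interval 0.50 to 1.54). For Anln the difference was 1.05 (0.32 to 1.79), and for Foxm1 it was 0.63 (0.04 to 1.21). When either genotype array was left out of the fit, Cdc25c (adjusted p = 0.0349) and Anln (adjusted p = 0.0452) were called, against 0.659% of all genes called with a positive difference. Among the members not called, the interval remained wide. For Pttg1 the difference was 0.26 (-0.32 to 0.84), and for Bub1 it was -0.10 (-0.76 to 0.56).

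Cdc25c, Anln and Foxm1 were below 0 on both wild type arrays and above 0 on both mutant arrays. They are 3 of the 21 members with a value on all 4 arrays (14.3%), against 5.83% of all such genes, and 0 members showed the reverse, against 5.64%. The second probes bear on this in part. That of Cdc25c had -0.14 in wild type and 0.00 in mutant cells, and that of Anln had -0.20 and -0.06, and in mutant cells both lay within their standard error of 0.

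**Figure D5:**
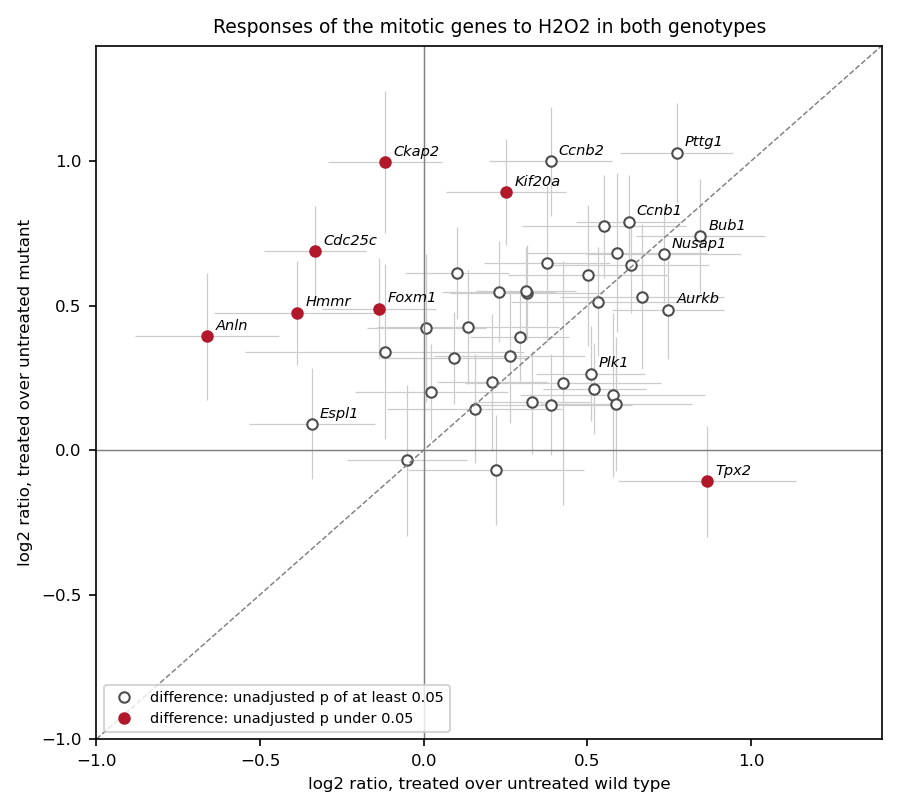
Log2 ratio of treated over untreated wild type cells (horizontal) and mutant cells (vertical) for the 43 members with both, with standard errors from limma as grey lines, and the dashed line where both are equal. Filled symbols have an unadjusted p under 0.05 for the difference: 6 lie above the line, among them Cdc25c and Anln left of 0, and Tpx2 lies below it.

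The 2 responses correlated over the members with r = 0.148 (43 genes), and over all genes with r = 0.651 (29002 genes), a description across genes that share arrays and dyes. The genotype ratio of a member correlated with its response in wild type cells at r = 0.715 (43 members; all genes 0.463) and with that in mutant cells at r = -0.06 (46 members; all genes 0.25). These comparisons used different arrays and sample numbers, but a dye preference of a probe enters all of them, and how much it adds was not tested. The 19 members called lower on the genotype arrays had a median response of 0.10 in wild type cells (16 with a value, 10 above and 6 below 0) and of 0.39 in mutant cells (19 above 0). For the 27 members not called, the medians were 0.51 in wild type (25 above 0) and 0.49 in mutant cells (24 above 0). In terms of genes, Ttk, Mad2l1, Top2a and Plk4 had low genotype ratios and wild type responses between -0.12 and 0.23. Aurkb, Bub1, Nusap1 and Tpx2 had genotype ratios between -0.15 and 0.63 and wild type responses between 0.73 and 0.87. Of these genes, Top2a, Plk4, Nusap1 and Tpx2 had a wild type value on 1 array only, and a second probe of Plk4 gave 0.62. Ccnb1 and Ect2 did not follow this contrast, with genotype ratios of -0.68 and -0.82 and wild type responses of 0.63 and 0.67. The offsets between the dyes, with likely untreated mutant RNA in both as above, differed between these genes too. They were -0.43 for Ttk, -0.24 for Mad2l1, -0.46 for Top2a and -0.50 for Plk4. For the other genes they were 0.53 (Aurkb), 0.31 (Bub1), -0.23 (Nusap1) and -0.02 (Tpx2). Their part in the contrast was not tested.

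Promoter letters were set beside the genotype ratios as a description. Of all genes 8.47% were called lower, and their share with and without these letters was not computed. Of the 27 members whose window holds CHR letters, 8 were called lower, with a median ratio of -0.51. Of the 11 whose window holds none, 9 were called lower, with a median of -0.91. Anln, Top2a, Hmmr and Ttk, the lowest members printed above, all had CHR letters within the 300 bases, though Plk4, Nek2, Mad2l1, Tacc3 and Cenpe had none. With CCAAT, 11 of 29 members were called lower, and without it 6 of 9, against the same 8.47% of all genes. Absence of these letters from the window says nothing of other sites.

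Other genes of the pathway were read from 3 further lists. Of 49 other mitotic genes, 42 were on the array, and their median log2 ratio on the genotype arrays was -0.58 (36 below and 6 above 0), with 13 of 42 called lower and 2 higher, against 8.47% and 10.6% of all genes. The lowest were Cenpp at -2.05 (kinetochore), Cdc25a at -1.996 (phosphatase of cell cycle entry), Shcbp1 at -1.55, Spc25 at -1.49 (Ndc80 complex) and Cdca2 at -1.24. Cit, a cytokinesis kinase, at 0.77 and Pkmyt1, an inhibitory kinase of cyclin B kinase, at 0.72 were called higher. The 12 subunits and activators of the anaphase-promoting complex gave a median of 0.165, with 0 called lower and 3 called higher (Cdc16 at 1.23 on array 3 alone, Cdc23 at 0.92 and Fzr1 at 0.67), against 8.47% and 10.6% of all genes. The 7 of 10 cohesin genes on the array gave 0.25 with none called. After treatment the other mitotic genes had medians of 0.34 in wild type (29 of 39 above 0) and 0.27 in mutant cells (29 of 42 above 0), and 0 of them were called by limma. Without adjustment, at p under 0.05, 12 of 39 were above 0 and 1 below in wild type cells, against 10.7% and 9.38% of all genes, and 13 of 42 above and 2 below in mutant cells, against 6.01% and 6.49%. The highest with values on both arrays were Kif18a (0.86) in wild type and Kif18b (0.85) in mutant cells. The lowest were Cenpp (-1.29) in wild type and Cdc25a (-0.87) in mutant cells, and these were the largest in absolute size.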

How the data were processed

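Arrays were scanned and read by the authors with Feature Extraction (A.7.5.1 per the file headers), and the deposited files hold mean and local background intensities of each spot in Cy3 and Cy5, flags that have no unit, and a log10 ratio of the software. The authors also deposited log2 ratios after background subtraction and loess, made with limma. Here, the local background was subtracted from the deposited intensities, loess was run within each array with control spots at weight 0, outlier spots were left out, and spots of a probe were averaged. All 6 arrays were fitted together with limma 3.58.1 (R 4.3.3, data.table version 1.17.8), with 1 coefficient per comparison, because 2 arrays leave too few degrees of freedom alone. P-values are two-sided, adjusted by Benjamini-Hochberg over all probes, and a call is an adjusted p under 0.05. Promoters and plots used Python 3.11.15, pandas 2.3.3 and matplotlib 3.10.9. With 2 arrays a comparison, their small number bounds the precision.

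Of the accession-named probes, 20716 of 22905 were given a gene symbol. Members, roles, lists and the rule for named genes (members called in any comparison, a set of 12 mitotic genes, and the 5 highest and 5 lowest of each comparison) were chosen with earlier results of these data known. Other settings tried were outlier spots kept, normexp with an offset of 50, median centring, the authors' series table, the log10 ratio of Feature Extraction, each comparison's own arrays, brighter probes, the mean of a gene's probes, a replicate block and each array left out. The methods give cytoplasmic and the labels total RNA.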

Additional observations from a re-analysis of the deposited data

Results flagged for a closer look

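The responses of 3 mitotic genes stood on opposite sides of 0 in the genotypes, below 0 on both wild type and above 0 on both mutant treatment arrays. The difference of the log2 ratios, mutant minus wild type, was 1.02 for Cdc25c, the phosphatase of mitotic entry (limma adjusted p = 0.589). It was 1.05 for Anln, which encodes anillin (limma adjusted p = 0.736), and 0.63 for the forkhead factor gene Foxm1 (limma adjusted p = 0.832). The differences thus did not pass adjustment over all probes. The 3 genes are 14.3% of the 21 members with a value on all 4 arrays, against 5.83% of all such genes. By their brightest probes, all 3 were also called lower on the genotype arrays, as were 41.3% of the members and 8.47% of all genes. The second probes of Cdc25c and Anln gave smaller differences of the responses, 0.14 and 0.15. On the genotype arrays that of Cdc25c had -0.08 (limma adjusted p = 0.816) and that of Anln -1.13.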

How the results depend on the processing

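In treated wild type cells, the median log2 ratio of the members (0.32) was 0.24 with normexp background correction, 0.88 with median centring and 0.23 with the mean of a gene's probes, and ranged from 0.32 to 0.39 with each array left out in turn. The number called (0) was 2 with normexp and 14 on their own arrays, and ranged from 0 to 13 with each array left out. In treated mutant cells the median (0.45) was 1.21 with median centring and ranged from 0.35 to 0.59, and the number called (0) was 16 with median centring and 16 on their own arrays, and ranged from 0 to 16. On the genotype arrays the median (-0.59) was -0.545 with normexp, -0.23 with median centring, -0.63 with the mean of probes and -0.64 over members under their own array name, an alternative chosen after seeing the data, and ranged from -0.64 to -0.59. The number called (19) was 8 with median centring, 10 with the Feature Extraction ratio and 7 on their own arrays, and ranged from 13 to 24, the highest with Tpx2 called higher. Cenph turned to 0.48 with the mean of its probes, one of which is near background. The median difference of the responses (0.10) was 0.43 with median centring and ranged from 0.06 to 0.21, and the number called (0) was 2 on the 4 treatment arrays and ranged from 0 to 2.

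The log2 ratios of arrays with the same number in the 2 genotypes did not deviate together (r = -0.05 over 29913 probes). A culture or day shared by both dyes of an array cancels in its ratio, so this cannot tell whether same-numbered arrays share a batch. With the replicate block, the median difference was 0.165 and the number called was 0. A block for the day of scanning was not run, since the files give only the time of extraction. Of the values of single genes under alternatives, 526 of 586 in wild type, 553 of 631 in mutant cells and 529 of 637 on the genotype arrays kept their direction and their side of the threshold. Dim Cy5 limited the depth, with 41.5% to 69.2% of spots well above background. Where results moved, the cause was not tested.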
